A study of Caenorhabditis elegans with 6 samples.

Results

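The insulin-like peptide genes of Caenorhabditis elegans were taken as all genes whose whole symbol is daf-28 or ins- followed by a number. This rule was met by 39 of the 47063 genes deposited, daf-28 and 38 ins genes, and all 39 had at least 1 read. RNA-seq had been done on 6 libraries from embryos and larvae of strain FQ939, labelled as wild type, with 3 libraries from dopamine neurons and 3 from serotonin neurons. All 6 share this strain and genotype, and no treatment, exact stage, marker transgene or method of collection is given in the sources used here. The labels do not say whether replicates came from separate cultures or sorts, and a p-value here reflects the variation among the 6 libraries alone, possibly technical.

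In nematodes, insulin-like peptides are small secreted proteins that bind a single insulin receptor, DAF-2. Some act as agonists, which activate a kinase cascade and keep the transcription factor DAF-16 out of the nucleus, and others act as antagonists that favour the dauer larva, a stress-resistant resting form. Many are made in neurons, and daf-28 is known above all from the amphid sensory neurons ASI and ASJ. In this animal the dopamine neurons are touch-sensing, and serotonin is made mainly by NSM, which lies within the pharynx, and by the amphid neuron ADF. The labelled cell types can be checked by their own genes. The dopamine transporter gene dat-1 lay at 11060 to 23082 normalized counts (reads scaled by a size factor for each library) in the dopamine libraries and at 59.8 to 93.3 in the serotonin libraries. The tryptophan hydroxylase gene tph-1, which makes the serotonin precursor, lay at 3346 to 5782 in serotonin libraries and at 17.98 to 157 in dopamine libraries. By the limma test described below, all 6 dopamine markers listed were higher in dopamine neurons, beside 3.16% of all genes. Of 6 serotonin markers 5 were tested and only 3 were higher in serotonin neurons, beside 6.36% of all genes. By edgeR this serotonin count was 2, beside 748 of all 15750 genes tested. Markers of other cells were present too. The summed level of 5 pharyngeal muscle genes was 43108 to 85739 normalized counts in serotonin libraries against 443 to 1038 in dopamine libraries, and that of 5 body wall muscle genes was 24228 to 49435 over all 6. Reads assigned to genes numbered 20418663 to 31559049 per library, and nuclear ribosomal RNA took 40.9% of them in dopamine 1 and 41.5% in serotonin 3 against 7.53% to 13.7% elsewhere.

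The comparison of dopamine with serotonin neurons asked which insulin-like genes each cell type expressed. One member, daf-28, passed the test, and it was higher in serotonin neurons. Of the 39 members, 17 reached 10 normalized counts in at least 3 of the 6 libraries and were tested by limma on log2(normalized count + 1), with p-values adjusted over all 15750 genes tested and a threshold of 0.05. Among all genes tested, 6.36% were higher in serotonin neurons and 3.16% in dopamine neurons by this rule (1002 and 498 genes, or 2494 and 163 with pan-neuronal genes as the scale). For the members these counts were 1 and 0, and toward dopamine neurons the count was also 0 at an unadjusted p under 0.05, by edgeR and by DESeq2. Toward serotonin neurons the counts were 4, 1 and 4 in the same order. Over all 15750 genes edgeR called 748 toward serotonin and 405 toward dopamine neurons, and DESeq2 1329 and 716. The share of all genes at an unadjusted p is not given here. Without dopamine 1, 2 members passed toward serotonin neurons, beside 1314 of 14633 genes tested. Without dopamine 2, 3 members did, beside 1019 of 15256. The median log2 fold change, dopamine minus serotonin, was -0.65 over the 17 tested members and -0.07 over all genes tested, and it was below 0 for 12 of the 17 and for 53.0% of all genes. The members' median was -0.06 (all genes 0.13) with quantile normalization, where 9 of 17 were below 0, and -1.51 (all genes -0.92) with pan-neuronal scaling, where 16 were. It was -0.37 with dopamine 2 left out, -0.16 with dopamine 3 left out and -0.20 with serotonin 1 left out. In 5 of the 17 every serotonin library lay above every dopamine library, and in 1 the reverse held. Over all genes tested these shares were 15.1% and 12.3%. With the replicate number as a block, 4 members were higher in serotonin neurons, where 11.7% of all genes were.

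**Figure D1:**
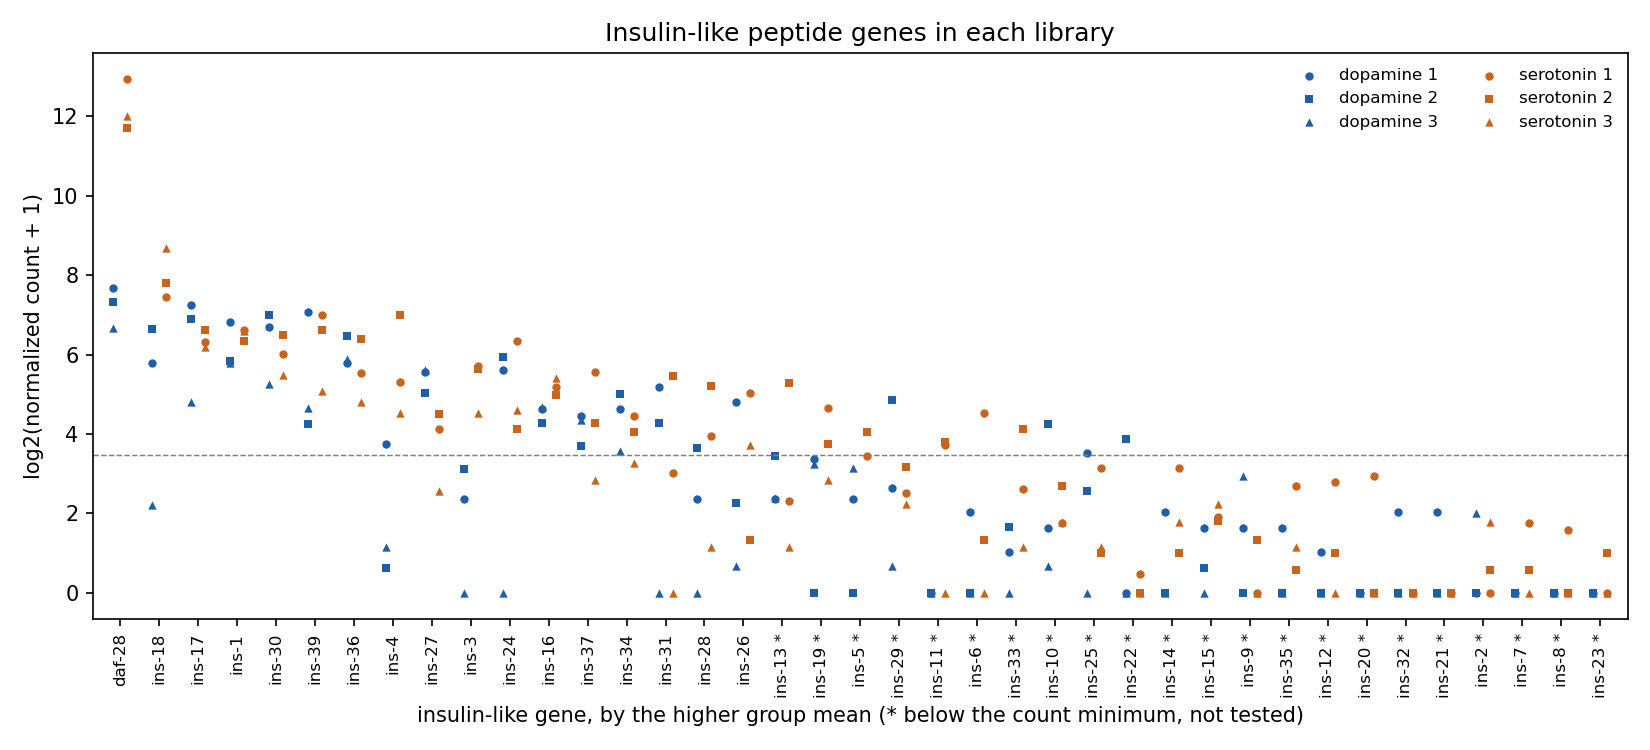
Level of the 39 insulin-like genes as log2(normalized count + 1), by gene on the x axis, with 1 point per library (blue dopamine, orange serotonin, shapes for replicates 1 to 3) and a dashed line at 10 normalized counts. Only daf-28 reaches 3352 normalized counts or more, in all 3 serotonin libraries, and the starred genes on the right were too low to test.

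The daf-28 gene (WBGene00000920, chromosome V, 19815133 to 19816454 on the plus strand in WBcel235) encodes an agonist that inhibits entry into dauer. It stood at 7904, 3352 and 4148 normalized counts in serotonin libraries 1, 2 and 3. Dopamine libraries 1, 2 and 3 held 204, 159 and 101. Every serotonin library was at least an order of magnitude above every dopamine library. The means were 5135 ± 2431 and 154.5 ± 51.9 (SD, n = 3 each). The difference fitted on the log2 scale was 32.1-fold (log2 fold change -5.003, SE 0.37, limma adjusted p = 8.48e-06, lower in 3 of 3 dopamine libraries). The difference passed under all 18 alternative settings, with log2 fold changes from -5.86 to -4.64 and adjusted p from 1.57e-33 to 2.49e-04. In bulk RNA a higher level cannot be told apart as more cells of a type or more RNA per cell.

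Levels of other cell types' genes are given here beside daf-28. The summed level of 6 ASI markers was 361 to 739 normalized counts in serotonin libraries and 640.4 to 1075 in dopamine libraries, and that of 6 ASJ markers was 178 to 222 against 128 to 318. The TGF-beta ligand gene daf-7, a defining ASI marker, averaged 345.5 in serotonin and 644 in dopamine libraries, and the thioredoxin gene trx-1, a defining ASJ marker, averaged 96.5 and 50.4. None of the 4 tested ASI genes passed, and of the 5 tested ASJ genes the sulfotransferase gene ssu-1 was higher in dopamine neurons (limma adjusted p = 0.0337). It met the count minimum through its dopamine libraries alone, fell below it when any 1 of them was left out, and did not pass without serotonin 2 or 3 or with pan-neuronal scaling (adjusted p = 0.0947, 0.0903 and 0.0874). The summed level of 6 markers of the amphid neurons ADL and ASH was 117 to 156.85 normalized counts in serotonin libraries and 15.25 to 107 in dopamine libraries, and none of the 4 tested passed. Of 5 markers of the amphid neuron ASK, summing to 112 to 254 and 14.7 to 126.1, 2 were tested and the G protein gene gpa-15 was higher in serotonin neurons (limma adjusted p = 0.00844), meeting the count minimum through its serotonin libraries alone. Whether the gpa-15 RNA came from ASK or from other neurons was not tested. The ASI, ASJ and ASK sums thus overlapped between groups, whereas those of ADL and ASH and of pharyngeal muscle did not. Over serotonin libraries 1, 2 and 3 the pharyngeal muscle sum was 43108, 45163 and 85739, beside daf-28 at 7904, 3352 and 4148. The part of muscle or other sensory neuron RNA in the daf-28 level was not tested. On the low side, the dopamine mean of daf-28 was 3.01% of the serotonin mean, beside 1.45% for tph-1, 2.39% for the serotonin reuptake transporter gene mod-5 and, among the 5 pharyngeal muscle genes, 0.948% for the myosin gene myo-2 to 5.80% for the troponin C gene tnc-2. Over dopamine libraries 1, 2 and 3, daf-28 stood at 204, 159 and 101 normalized counts. In the same order tph-1 stood at 157, 17.98 and 19.9, mod-5 at 66.7, 31.1 and 48.9, and the pharyngeal muscle sum at 687, 1038 and 443. The part of serotonin neuron RNA in the dopamine libraries' daf-28 was not tested.

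The other agonists with a known role in dauer entry were far lower. The ins-4 gene (WBGene00002087, chromosome II), whose peptide acts with DAF-28 to prevent dauer entry, stood at 38.9, 127 and 22.1 normalized counts in serotonin libraries 1, 2 and 3. It stood at 12.5, 0.54 and 1.21 in the dopamine libraries, which are 12, 1 and 2 reads. The groups did not overlap, and serotonin 2 was well above the others. The log2 fold change was -3.78 (SE 1.11) and just missed the threshold (limma adjusted p = 0.0542), while with the replicate block it passed (adjusted p = 0.0184, range over 16 alternatives 0.00982 to 0.353). Without dopamine 1 it passed too (adjusted p = 0.0181).

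Next to it on the chromosome, ins-3, needed with ins-33 for larval germline proliferation, stood at 51.9, 49.0 and 22.1 in serotonin libraries and 4.17, 7.63 and 0 in dopamine libraries. This gene met the count minimum through its serotonin libraries alone. Its log2 fold change was -3.47 (SE 1.07, limma adjusted p = 0.0656), and with the replicate block it passed (adjusted p = 0.0167, range over 13 alternatives 0.0167 to 0.149). Leaving out dopamine 2 also took it past the threshold (adjusted p = 0.0448). The ins-6 gene, which encodes an agonist known for promoting exit from dauer, was below the count minimum. It had 56 reads in serotonin 1, 3 each in serotonin 2 and dopamine 1, and 0 in the other libraries. The ins-7 gene, an agonist repressed by DAF-16, had 6 reads in serotonin 1, 1 in serotonin 2 and none in the 3 dopamine libraries, where 3 reads would be 1.63 to 3.13 normalized counts. Neither gene met the count minimum.

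Among members known as antagonists, ins-18 showed the largest separation. The ins-18 gene (WBGene00002101, chromosome I), whose peptide opposes DAF-2 and favours dauer, stood at 175, 221 and 414 normalized counts in serotonin libraries 1, 2 and 3. Dopamine libraries held 54.2, 99.2 and 3.62. All serotonin libraries were above all dopamine libraries, and dopamine 3 was far below the other two. The log2 fold change was -3.10 (SE 0.93) and missed the threshold (limma adjusted p = 0.0604), but passed with the replicate block (adjusted p = 0.0461, range over 18 alternatives 0.0153 to 0.192). Without dopamine 2 it passed as well (adjusted p = 0.0153). So for ins-3, ins-4 and ins-18 the call depended on the block, on single libraries and on the processing. All 3 also passed with a pseudocount of 8, with pan-neuronal scaling and by DESeq2, and none passed by edgeR or with TMM scaling. On log2(FPKM + 1) ins-3 and ins-18 passed, with quantile normalization ins-18 alone and with no filter ins-4 alone.

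The ins-1 gene (chromosome IV), the member closest to human insulin, acts in salt learning. It stood at 112, 56.1 and 54.3 normalized counts in dopamine libraries 1, 2 and 3 and at 97.1, 79.5 and 95.8 in serotonin libraries. The groups overlapped, with dopamine 1 above every serotonin library (log2 fold change -0.37, SE 0.49, limma adjusted p = 0.704). Also linked to dauer formation, ins-17 (chromosome III) stood at 152, 118.8 and 27.2 in dopamine and 78.2, 96.5 and 72.4 in serotonin libraries. Its groups overlapped, with dopamine 3 lowest (log2 fold change -0.04, SE 0.63, limma adjusted p = 0.978). Without dopamine 3 the ins-17 log2 fold change was 0.71. A test that missed the threshold does not show that these levels were equal.

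**Figure D2:**
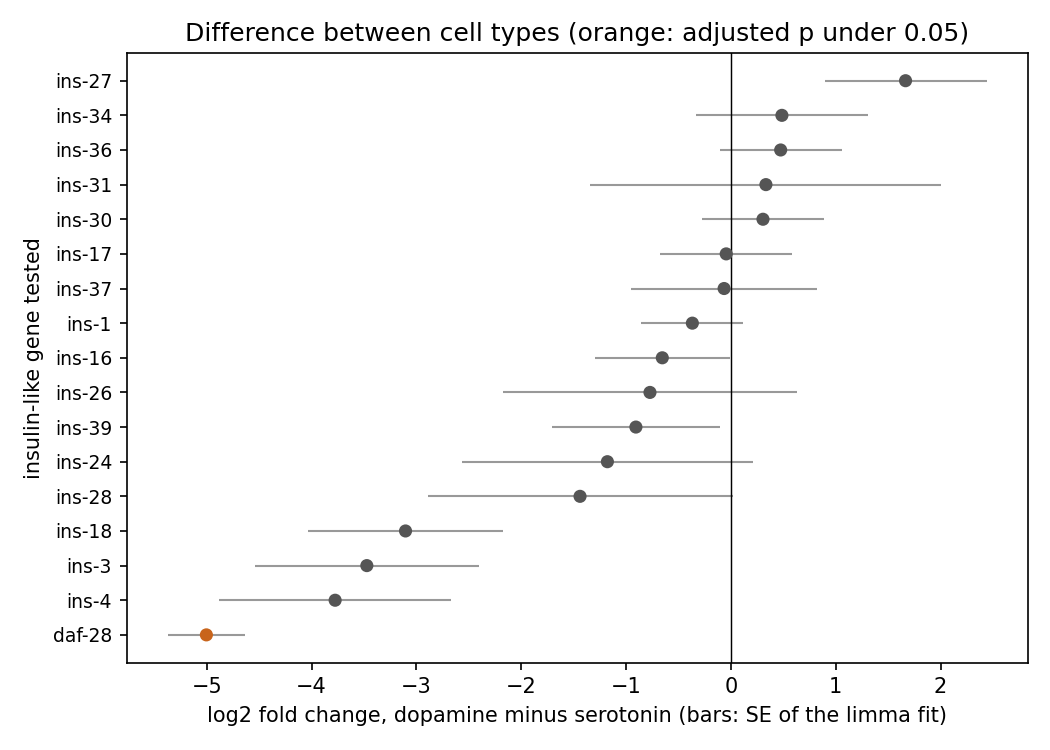
Log2 fold change, dopamine minus serotonin, of the 17 tested insulin-like genes, with bars for the SE of the limma fit and daf-28 in orange as the gene past the threshold. After daf-28 at -5.003 come ins-4, ins-3 and ins-18 between -3.78 and -3.10, and the SE bars of most other members reach or cross 0.

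For the remaining 11 tested members no role is given here, and none of them passed. The ins-27 gene (chromosome I) was the one member with every dopamine library above every serotonin library. It stood at 45.9, 31.6 and 47.7 normalized counts in dopamine libraries 1, 2 and 3 and at 16.5, 21.5 and 4.91 in serotonin libraries. Serotonin 3 was lowest, at 4 reads (log2 fold change 1.67, SE 0.77, limma adjusted p = 0.231, range over 17 alternatives 0.0776 to 0.545). The ins-16 gene (chromosome III) lay the other way without overlap, at 23.97, 18.5 and 24.7 in dopamine and 35.4, 30.5 and 41.7 in serotonin libraries. Its values were close together within each group (log2 fold change -0.65, SE 0.64, limma adjusted p = 0.595).

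Members with overlapping groups included several of the better expressed ones. The ins-39 gene (chromosome X) stood at 133, 17.98 and 24.1 normalized counts in dopamine libraries and 126, 96.5 and 33.2 in serotonin libraries, with replicate 1 highest in both groups (log2 fold change -0.91, SE 0.80, limma adjusted p = 0.55). Expression of ins-30 stood at 102, 126 and 37.4 in dopamine and 64.1, 89.5 and 44.2 in serotonin libraries, so replicate 3 was lowest in both (log2 fold change 0.31, limma adjusted p = 0.801). The ins-36 gene stood at 54.2, 87.7 and 58.5 in dopamine and 45.2, 83.0 and 27.0 in serotonin libraries, with replicate 2 highest in both (log2 fold change 0.47, limma adjusted p = 0.679). For these genes the libraries of 1 group differed among themselves by more than the group means did.

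At lower levels the single libraries decided the picture. The ins-24 gene stood at 47.9, 60.0 and 0 normalized counts in dopamine and 80.2, 16.5 and 23.3 in serotonin libraries, and its log2 fold change of -1.18 (SE 1.39) became 0.75 without dopamine 3. The ins-26 gene stood at 27.1, 3.81 and 0.6 in dopamine and 31.5, 1.5 and 12.3 in serotonin libraries, so replicate 1 was highest in both (log2 fold change -0.77, SE 1.41). The ins-28 gene stood at 4.17, 11.4 and 0 in dopamine and 14.6, 35.99 and 1.23 in serotonin libraries, where replicate 2 was highest in both (log2 fold change -1.44, SE 1.45). For ins-24, ins-26 and ins-28 the SE was about as large as the difference or larger.

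The ins-31 gene stood at 35.4, 18.5 and 0 normalized counts in dopamine and 7.08, 42.99 and 0 in serotonin libraries, with no read in replicate 3 of either group (log2 fold change 0.33, SE 1.67). The ins-34 gene stood at 23.97, 31.1 and 10.9 in dopamine and 20.8, 15.5 and 8.59 in serotonin libraries (log2 fold change 0.49, SE 0.82). The ins-37 gene stood at 20.8, 12.0 and 19.3 in dopamine and 46.4, 18.5 and 6.14 in serotonin libraries, with serotonin libraries both highest and lowest (log2 fold change -0.07, SE 0.89). Exons of ins-34, ins-36 and ins-10 overlap another annotated gene on the opposite strand, so their counts are uncertain where strand was not used in counting. Those of ins-13 overlap acdh-2 on the same strand by 87 bases. Those of ins-37 overlap other genes by 171 bases on the same strand and 192 on the opposite strand. For the same-strand stretches of ins-13 and ins-37 the counts are uncertain even where strand was used.

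The 22 members below the count minimum ranged from 0 to 37.99 normalized counts in any library. Of these, 12 stayed under 10 in all libraries. The other 10 reached 10 in at least 1 library, and they were ins-5, ins-6, ins-10, ins-11, ins-13, ins-19, ins-22, ins-25, ins-29 and ins-33. The intestinal learning gene ins-11 had 31 and 26 reads in serotonin 1 and 2 and none in serotonin 3 or in any dopamine library. The ins-13 gene had 76 reads in serotonin 2 (37.99 normalized counts) and 1 to 18 in each other library. The ins-10 and ins-29 genes were highest in dopamine 2, at 33 and 51 reads against at most 16 elsewhere, and all 25 reads of ins-22 in dopamine neurons came from that library. A single library held more reads than the other 5 together for most of these 10 genes. It was dopamine 2 for ins-10, ins-22 and ins-29, serotonin 1 for ins-6, ins-11 and ins-19, and serotonin 2 for ins-13 and ins-33. All 3 dopamine libraries were at 0 for 5 members and all 3 serotonin libraries for 2 (ins-21 and ins-32, with 3 reads each in dopamine 1).

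Levels between members were compared per gene length, as FPKM. In serotonin neurons daf-28 averaged 627 ± 297 FPKM (SD, n = 3) and ranked 31 among 19635 protein-coding genes. The next members by mean FPKM there were ins-18 at 24.5 ± 11.5, ins-39 at 7.30 ± 4.06, ins-16 at 6.85 ± 1.07 and ins-17 at 6.16 ± 0.938. The step from daf-28 to ins-18 was larger than their spread, while ins-39, ins-16 and ins-17 did not differ beyond theirs. In dopamine neurons daf-28 also came first, at 18.9 ± 6.33 FPKM and rank 3091, followed by ins-36 at 7.58 ± 2.07, ins-17 at 7.43 ± 4.84, ins-30 at 6.01 ± 3.11, ins-39 at 5.02 ± 5.57 and ins-18 at 4.74 ± 4.33. Among these dopamine values only daf-28 stood apart by more than the spread. No test was made of the order.

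The summed FPKM of all members was 1064, 518 and 586 in serotonin libraries 1, 2 and 3. It was 105, 93.9 and 45.2 in dopamine libraries 1, 2 and 3, so the groups did not overlap. The daf-28 gene made up 90.7%, 79.03% and 86.5% of the sum in the serotonin libraries and 23.7%, 20.6% and 27.2% in the dopamine libraries. Without daf-28 the sums were 98.5, 109 and 78.9 FPKM in serotonin and 80.3, 74.6 and 32.9 in dopamine libraries, which overlapped in range between serotonin 3 and dopamine 1. The number of members with at least 1 read was 34, 34 and 27 in serotonin and 32, 24 and 20 in dopamine libraries. Dopamine 3 had the lowest sum and the fewest members, although its 27823600 reads were the most of the 3 dopamine libraries.

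**Figure D3:**
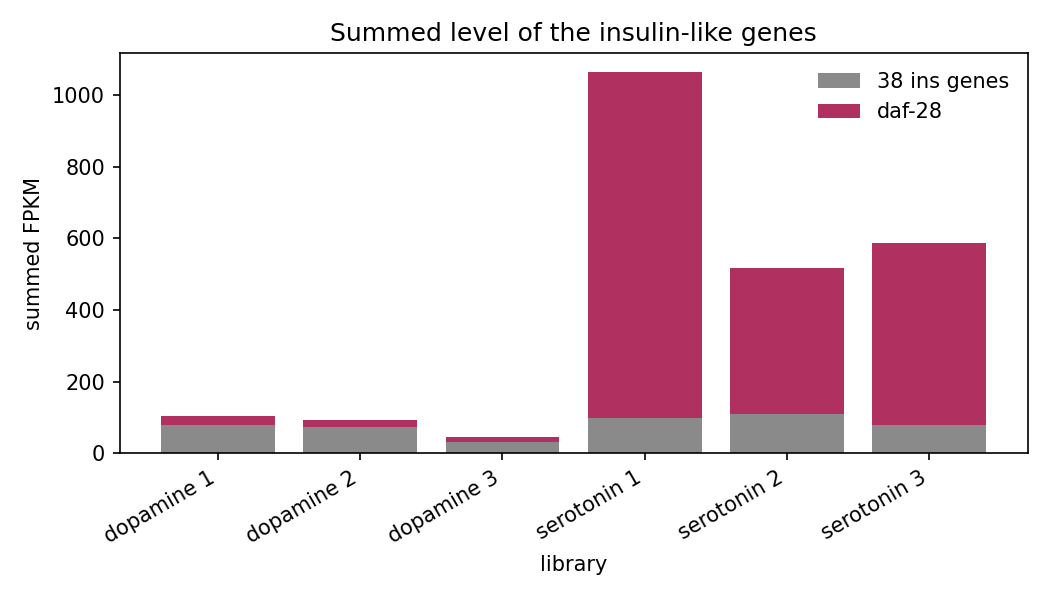
Summed FPKM of the insulin-like genes in each of the 6 libraries, split into daf-28 (red) and the 38 ins genes (grey). The serotonin bars reach 518 to 1064 FPKM, mostly daf-28, while the grey parts range from 32.9 to 109 FPKM over all libraries.

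Position in the genome was not used to choose the members. By the Ensembl annotation of WBcel235, 15 lie on chromosome II, 10 on I, 5 on III, 4 on IV, 3 on V and 2 on X. Their longest coding sequences span 67 to 218 codons, with a median of 103. Neighbouring members less than 15 kb apart formed 7 runs holding 25 of the 39, and daf-28, ins-1, ins-16, ins-17, ins-18 and ins-39 lay outside them. The largest run, on chromosome I from 14012369 to 14037777, holds ins-24 to ins-30. Its summed level was 243, 265 and 86.3 normalized counts in dopamine and 219, 174 and 90.9 in serotonin libraries. These sums overlapped, although ins-27 in this run lay toward dopamine and ins-28 toward serotonin neurons, neither past the threshold.

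A second run, on chromosome II from 5988524 to 6011321, holds ins-2, ins-3, ins-4, ins-5, ins-6 and ins-20. Its summed level was 129, 193 and 62.6 normalized counts in serotonin libraries 1, 2 and 3 and 23.98, 8.17 and 12.1 in dopamine libraries, without overlap. In each library but dopamine 3, ins-3 and ins-4 held more than the other 4 genes together, and in dopamine 3 most of the sum was ins-5 and ins-2. The untested ins-5 stood at 9.83, 15.5 and 15.96 in serotonin and 4.17, 0 and 7.84 in dopamine libraries, and ins-2 had at most 5 reads in any library. The genes of the run thus differed in level within the same libraries. The sums were not tested.

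Genes of the pathway downstream of the peptides mostly showed no difference past the threshold. Of 28 genes for the receptor and its signalling, 26 were tested, 3 were higher in serotonin and 0 in dopamine neurons by limma, beside 6.36% and 3.16% of all genes (median log2 fold change 0.11 against -0.07, or -0.75 against -0.92 when scaled to pan-neuronal genes). At an unadjusted p under 0.05 the counts were 5 and 1, and the share of all genes at that level is not given here. edgeR called 2 and 0, beside 748 and 405 of all 15750 genes, and DESeq2 called 3 and 0, beside 1329 and 716. With the replicate block the counts were 4 and 2, beside 11.7% and 6.78% of all genes. The 2 toward dopamine neurons were the 14-3-3 gene ftt-2 and the host cell factor gene hcf-1, named after their values were seen. The receptor gene daf-2 stood at 7722 ± 1273 normalized counts in dopamine and 6519 ± 1699 in serotonin libraries (log2 fold change 0.26, limma adjusted p = 0.588). The PI3 kinase gene age-1 stood at 934 ± 29.1 and 945 ± 203. The FOXO gene daf-16, the main output of the pathway, stood at 1764 ± 393 and 1939 ± 352. For these 3 genes the groups overlapped, and the receptor and its transcription factor were well above the count minimum in the libraries of both groups.

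The 3 genes that passed were ist-1, pdk-1 and sgk-1. The insulin receptor substrate homolog ist-1 stood at 1126, 855 and 2202 normalized counts in serotonin libraries 1, 2 and 3 and at 264, 107 and 171 in dopamine libraries, 7.55-fold apart (log2 fold change -2.92, SE 0.42, limma adjusted p = 9.53e-04), and passed under all 18 alternatives. The kinase gene pdk-1, which activates AKT, stood at 504, 766 and 513 in serotonin and 186, 249 and 282 in dopamine libraries (log2 fold change -1.31, limma adjusted p = 0.0241). This gene no longer passed without dopamine 1, serotonin 1 or serotonin 2 (adjusted p = 0.0653, 0.0503 and 0.118, range 0.0016 to 0.118). The kinase gene sgk-1 was low, at 79.02, 89.0 and 49.1 in serotonin and 10.4, 20.7 and 7.84 in dopamine libraries (log2 fold change -2.45, limma adjusted p = 0.0427). It no longer passed without dopamine 1, dopamine 3 or any 1 serotonin library (adjusted p = 0.0657, 0.108, 0.158, 0.2 and 0.0801, range 0.00614 to 0.2). The serotonin count of the list was 1 without dopamine 1, serotonin 1 or serotonin 2, beside 1314, 661 and 600 of all genes. The dopamine count was 1 without serotonin 3, beside 466 of all genes.

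The irld genes encode proteins with a receptor L-domain like that of the insulin receptor. Of 55 such symbols 14 were tested, 4 were higher in serotonin and 0 in dopamine neurons, beside 6.36% and 3.16% of all genes (median log2 fold change -0.88, which became 0.65 without serotonin 1 and 0.21 without serotonin 2, when 10 were tested), and 41 were below the count minimum. Toward dopamine neurons 1 had an unadjusted p under 0.05, and the share of all genes at that level is not given here. In that direction edgeR called 0 and DESeq2 1, beside 405 and 716 of all 15750 genes. With the replicate block irld-65 passed (limma adjusted p = 0.0244), where 6.78% of all genes were higher in dopamine neurons. The irld-2 gene stood at 357, 149 and 426 normalized counts in serotonin libraries 1, 2 and 3 and at 29.2, 2.18 and 29.6 in dopamine libraries (log2 fold change -4.31, SE 0.84, limma adjusted p = 0.00692). Expression of irld-15 stood at 223, 141.98 and 401 in serotonin and 16.7, 31.1 and 12.1 in dopamine libraries (log2 fold change -3.59, SE 0.58, limma adjusted p = 0.00209). Expression of irld-34 was the highest of the 4, at 592, 522 and 924 in serotonin and 52.1, 158 and 22.3 in dopamine libraries (log2 fold change -3.50, SE 0.59, limma adjusted p = 0.00284). In each of these genes the groups did not overlap. The irld-34 call was lost without both libraries rich in ribosomal RNA (limma adjusted p = 0.0578, range over 18 alternatives 3.87e-06 to 0.0578). The irld-11 gene met the count minimum through serotonin libraries alone, with 1 read in dopamine 1 and none in dopamine 2 and 3 against 67.5 to 74.7 normalized counts in serotonin 1 and 3 and 27.5 in serotonin 2 (log2 fold change -5.38, limma adjusted p = 0.00777). Serotonin 2 was lowest for all 4 genes, and serotonin 3 was highest for irld-2, irld-15 and irld-34. In serotonin libraries 1, 2 and 3 the pharyngeal muscle sum was 43108, 45163 and 85739 normalized counts. The sum of 18 pan-neuronal genes was 61138, 52068 and 83573 in the same order. The part of muscle or of other cells' RNA in the irld levels was not tested.

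**Figure D4:**
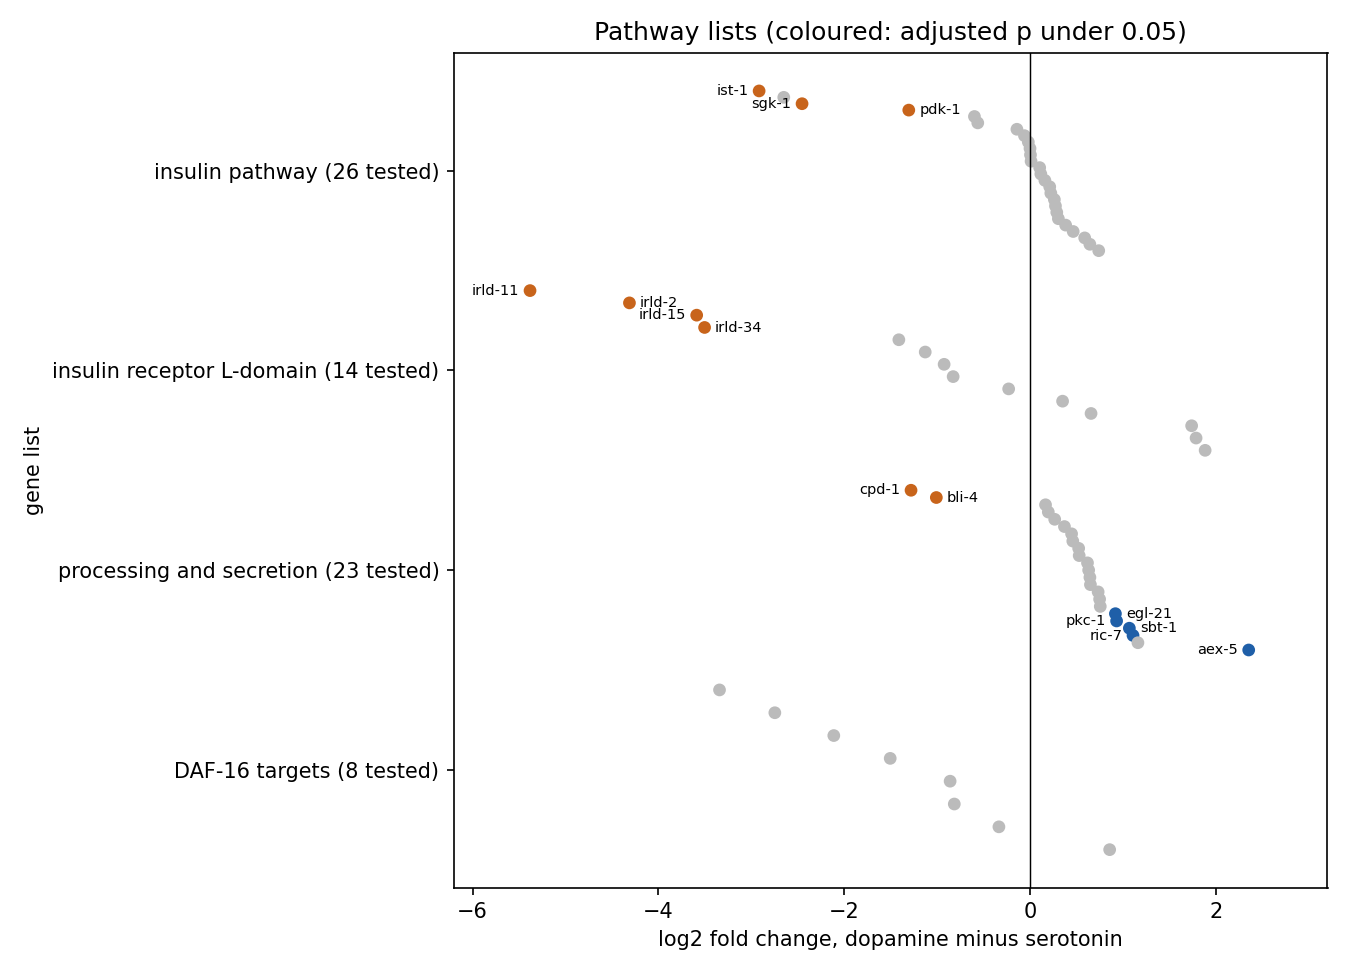
Log2 fold change, dopamine minus serotonin, of the tested genes in 4 lists around the insulin-like peptides, with genes past the threshold named and coloured blue (higher in dopamine) or orange (higher in serotonin) and the others grey. Vertical spread within a list only separates the points. The 4 named irld genes lie between -5.38 and -3.50, and most receptor and signalling genes lie near 0.

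Before release, insulin-like precursors are cut by proprotein convertases and packed into dense-core vesicles. Of 23 tested genes for these steps, 5 were higher in dopamine and 2 in serotonin neurons, beside 3.16% and 6.36% of all genes (median log2 fold change 0.63, or -0.23 when scaled to pan-neuronal genes, with 1 higher in dopamine neurons). With the replicate block 9 were higher in dopamine neurons, where 6.78% of all genes were, egl-3 among them (limma adjusted p = 0.00479). Leaving out single libraries gave 1 to 6 toward dopamine, 3 without dopamine 1, dopamine 3 or serotonin 1 and 1 without serotonin 2, and 0 to 1 toward serotonin neurons. The convertase gene aex-5 stood at 2975 ± 1455 normalized counts in dopamine and 562 ± 184 in serotonin libraries (log2 fold change 2.35, limma adjusted p = 0.00161). The chaperone gene sbt-1 (1.07), the synaptic gene ric-7 (1.11), the kinase gene pkc-1 (0.93) and the carboxypeptidase gene egl-21 (0.92) were the other log2 fold changes past the threshold toward dopamine neurons. With pan-neuronal scaling none of these 4 passed (limma adjusted p = 0.528, 0.547, 0.784 and 0.852). Each also lost its call without serotonin 2 (limma adjusted p = 0.0513, 0.0516, 0.131 and 0.147). Single libraries mattered further for ric-7 (dopamine 2 and serotonin 1, adjusted p = 0.0576 and 0.0579 without them), pkc-1 (dopamine 1, dopamine 3 and serotonin 1, 0.08, 0.147 and 0.0748) and egl-21 (dopamine 1 and 3, 0.0968 and 0.133). Pan-neuronal genes themselves were higher in dopamine neurons for 9 of 18, beside 3.16% of all genes. This count was 0 without dopamine 3 or with pan-neuronal scaling, 1 without serotonin 2, 3 without dopamine 1, 5 without serotonin 1 and 14 with the replicate block. Over all genes the counts under these settings, in the same order, were 215, 163, 315, 384, 341 and 1068, of 14315 to 15750 tested.

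In the other direction, the carboxypeptidase gene cpd-1 (log2 fold change -1.28, limma adjusted p = 0.0309) and the convertase gene bli-4 (-1.01, limma adjusted p = 0.037) were higher in serotonin neurons. Their calls were lost without dopamine 3 (adjusted p = 0.11 and 0.115), serotonin 2 (0.118 and 0.158) or serotonin 3 (0.0692 and 0.0834), that of cpd-1 also without serotonin 1 (0.0708) and that of bli-4 also without dopamine 1 or 2 (0.0541 and 0.113). Neither gene passed by edgeR, on log2(FPKM + 1) or without the 2 libraries rich in ribosomal RNA. The convertase gene egl-3 stood at 17668 ± 4555 normalized counts in dopamine and 10466 ± 2594 in serotonin libraries, short of the threshold (limma adjusted p = 0.102). The furin-like convertase gene kpc-1 stood at 1753 ± 121.96 and 1486 ± 364 (limma adjusted p = 0.594). Libraries of both groups thus held reads of both convertases.

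Of 16 genes known to respond to DAF-16, 8 were tested and none passed by limma in either direction, beside 6.36% of all genes toward serotonin and 3.16% toward dopamine neurons. Their median log2 fold change was -1.18 against -0.07 for all genes, or -2.04 against -0.92 when scaled to pan-neuronal genes. The list was not split by the direction in which DAF-16 moves each gene, so this median does not measure DAF-16 activity. At an unadjusted p under 0.05 the counts were 3 toward serotonin and 1 toward dopamine neurons, and the share of all genes at that level is not given here. edgeR called 0 either way, beside 748 and 405 of all 15750 genes, and DESeq2 called 1 and 0, beside 1329 and 716. With the replicate block 4 were higher in serotonin and 1 in dopamine neurons, beside 11.7% and 6.78% of all genes, and leaving out single libraries gave 0 to 1 in each direction. The metallothionein gene mtl-1 stood at 16.12, 53.5 and 18.4 normalized counts in serotonin libraries 1, 2 and 3 and at 7.3, 1.09 and 0 in dopamine libraries (log2 fold change -3.34, limma adjusted p = 0.11). The desiccation gene lea-1 stood at 2553 ± 473 in serotonin and 1447 ± 246 in dopamine libraries (log2 fold change -0.82, limma adjusted p = 0.0752). The mtl-1 gene met the count minimum through its serotonin libraries alone. With the replicate block both adjusted p-values were below the threshold (limma adjusted p = 0.0466 and 0.0136), and so was that of mtl-1 without dopamine 1 (0.0316). The superoxide dismutase gene sod-3, a standard readout of DAF-16, averaged 2.78 and 8.75 normalized counts in dopamine and serotonin libraries and was not tested.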

How the data were processed

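Deposited values were a signal of normalized counts, which the values show to be reads scaled by a size factor for each library, and FPKM, for 47063 genes in 6 columns. Per the submitters' processing notes STAR, HTSeq and DESeq2 were used, with roles, versions, build and strandedness not given in the sources used here. Per the labels, libraries were made with an amplifying kit from nanogram amounts of RNA. Such amplification can widen the spread beyond counting error, and its part in the spread here was not tested. Every value was a whole multiple of its library's step within 0.02 reads (100% in each column), so reads per gene were recovered, with 1 read worth 0.393 to 1.23 normalized counts.

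Gene identifiers were matched to Ensembl release 115 (46407 matched, 656 not), whose coordinates are printed. Genes with at least 10 normalized counts in at least 3 libraries were tested with limma 3.58.1 (trend and robust options, R 4.3.3) on log2(normalized count + 1), so fold changes of low genes are understated, with Benjamini and Hochberg adjustment. edgeR 4.0.16 and DESeq2 1.42.0 were run on recovered reads as alternatives, and the fit was tested on simulated data. Same-numbered libraries deviated from their group means together (correlations 0.433, 0.173 and 0.28 over genes), so the fit with a replicate block is given where it changed a call. The pairing comes from these data, since the labels say nothing of what a replicate number means.

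The members and gene lists were chosen with earlier results of these data known. All members past the count minimum were named, and others where any library reached 10. From the other lists daf-2, age-1, daf-16, egl-3, kpc-1 and up to 6 genes past the threshold were named, and lea-1, mtl-1, sod-3, irld-65 and the marker genes named were chosen after their values were seen. The values of 1 further signalling gene are not reported here. The closing section gives the alternatives, which include pseudocounts of 0.5 and 8, a filter of 50 and TMM scaling.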

Additional observations from a re-analysis of the deposited data

How the results depend on the processing

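The daf-28 call held under all 18 alternatives. The number of insulin-like genes higher in serotonin neurons was 1, and it was 2 with no filter or quantile normalization, 3 on log2(FPKM + 1), and 4 with a pseudocount of 8, pan-neuronal scaling, DESeq2 or the replicate block. Leaving out single libraries gave 1 to 3. The number higher in dopamine neurons was 0 under every alternative run. Receptor and signalling genes higher in serotonin neurons numbered 3, and 1 with no filter, on log2(FPKM + 1) or without the 2 libraries rich in ribosomal RNA, 5 with pan-neuronal scaling, and 1 to 3 with single libraries left out. Those higher in dopamine neurons numbered 2 with the replicate block and 0 to 1 with single libraries left out. Over all genes, 498 were higher in dopamine neurons, or 163 with pan-neuronal scaling, 1068 with the replicate block, 301 without the 2 libraries rich in ribosomal RNA and 215 to 466 with single libraries left out. Those higher in serotonin neurons numbered 1002, or 2494, 1842, 497 and 579 to 1314 in the same order. Toward serotonin neurons there were also 959 with no filter, 1021 with quantile normalization and 1046 on log2(FPKM + 1). With a pseudocount of 8 there were 1158, and by DESeq2 1329. Pan-neuronal scaling moved the median log2 fold change of all genes from -0.07 to -0.92, and quantile normalization moved it to 0.13, so directions near these values are relative to the scaling. The cause of the other shifts was not tested.

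Signs reversed under at least 1 alternative for 8 members, none of them past the threshold. The ins-17 value was 0.31 with quantile normalization, 0.013 on log2(FPKM + 1), 0.28 by edgeR and 0.27 by DESeq2. The ins-26 value was 0.43 and the ins-37 value 0.52 with quantile normalization. With pan-neuronal scaling ins-30 was at -0.55, ins-31 at -0.52, ins-34 at -0.37 and ins-36 at -0.38. Without the 2 libraries rich in ribosomal RNA ins-30 was at -0.14. With single libraries left out, the values ran from -0.51 to 0.71 for ins-17, -2.22 to 0.75 for ins-24, -1.79 to 0.18 for ins-26, -0.031 to 0.83 for ins-30, -1.08 to 1.91 for ins-31 and -0.76 to 0.60 for ins-37. The share of daf-28 in the summed insulin-like level of dopamine neurons was 23.2% by FPKM and 18.6% by normalized count. The 22 members below the count minimum, of which ins-13 had the most reads in any library with 76, were fitted with no filter, where none of them passed.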
